A study of Mus musculus with 6 samples.

Results

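The genes described here cover the path of the resiquimod (R848) signal, from endosomal receptors to the first ubiquitin ligase of the MyD88 pathway. They were chosen by symbol, from a list of 10: the receptors Tlr7, Tlr8 and Tlr9, the receptor chaperone Unc93b1, the adaptor Myd88, the kinases Irak1, Irak2, Irak3 and Irak4, and the ligase Traf6. Of these, Tlr9 encodes a receptor for CpG DNA, not for R848, and Irak3 encodes a brake on the signal. All 10 were among the 22105 features of the deposited table that carry a gene identifier. They were read in 4T1 cells, a mouse mammary carcinoma line, after 24 h of culture with a nanoparticle, CM-PEG-PLGA@DOX/R848, dosed to 2 µg/mL of doxorubicin (3 libraries), or with phosphate-buffered saline, PBS (3 libraries). The particles carry the anthracycline doxorubicin and R848 together, so the part of each drug and of the carrier cannot be told apart in this comparison. Separate cultures are not stated for the 3 libraries of a group; the p-values therefore reflect the spread among these libraries alone, which may be technical.

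TLR7, TLR8 and TLR9 are receptors of the endosome. TLR7 and TLR8 sense single-stranded RNA, and TLR9 senses unmethylated CpG DNA. TLR7 also senses small imidazoquinolines such as R848 and is regarded as the main R848 receptor in mice. UNC93B1 carries all of these receptors from the endoplasmic reticulum to the endosome. A bound receptor recruits MyD88, which gathers IRAK4 and then IRAK1 or IRAK2; these engage TRAF6, which passes the signal to TAK1, the IKK complex and interferon regulatory factors. IRAK3, also named IRAK-M, is a pseudokinase that restrains this step, and the same MyD88 module also serves most other Toll-like receptors and the IL-1 family receptors.

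Tlr7, Tlr8 and Tlr9 were near or at 0 in both groups, while the adaptor and 3 of the kinases were well expressed and differed between groups. Myd88 rose 1.83-fold, whereas Irak4, Irak2, Irak1 and Traf6 fell, Irak4 most. Levels are in FPKM, a fragment count scaled to transcript length and to the mapped fragments of the library. A gene was tested where at least 3 of the 6 libraries reached 1 FPKM, with limma on log2(FPKM + 1) and Benjamini-Hochberg adjustment over all 10863 tested genes; fold changes on this scale understate those of low genes. Of the 10 genes, 5 were tested and all 5 were called at an adjusted p under 0.05, 1 higher and 4 lower. The background is high: 86.4% of all tested genes were called, 40.5% higher and 46% lower, so a call by itself does not set these genes apart. The median log2 fold change of the 5 was -0.37, beside -0.06 for all tested genes. The libraries of the 2 groups did not overlap for any of the 5, which held for 87.2% of all tested genes.

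**Figure D1:**
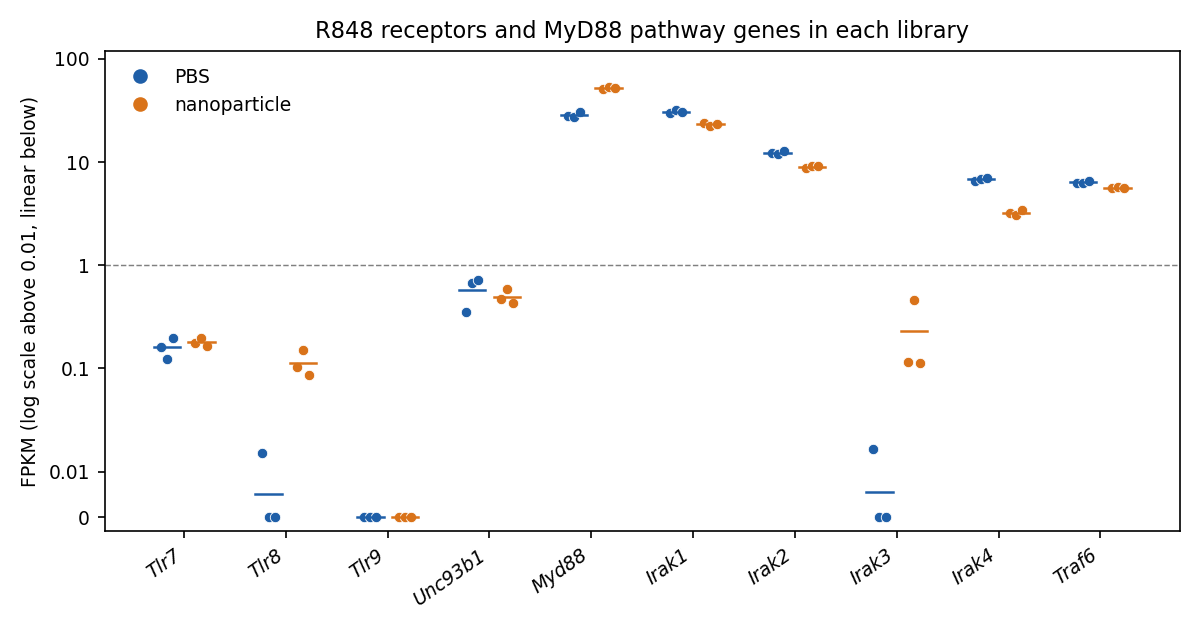
FPKM of each of the 10 genes (y axis, logarithmic above 0.01 and linear below) in the 3 PBS libraries (blue) and the 3 nanoparticle libraries (orange); points are libraries, short bars group means, and the dashed line marks 1 FPKM. Myd88 and Irak1 stand above 20 FPKM in all libraries, the receptors lie below 0.2 FPKM, and Myd88 is the one tested gene whose nanoparticle libraries are higher.

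Tlr7, on chromosome X, 167304929 to 167330558 (GRCm38, minus strand), read 0.163, 0.123 and 0.198 FPKM in the PBS libraries and 0.176, 0.197 and 0.163 FPKM in the nanoparticle libraries. The groups overlapped, with means of 0.161 ± 0.038 and 0.179 ± 0.017 FPKM (SD, n = 3 per group; exact two-sided permutation test, p = 0.6, where the smallest p that 3 against 3 can give is 0.1). The deposited values give no depth, so no limit can be set on a change that this level could hide.

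Tlr8 lies beside Tlr7 on chromosome X, 167242696 to 167264329. It was listed at 0.0151, 0 and 0 FPKM with PBS and at 0.104, 0.151 and 0.0871 FPKM with nanoparticles. The groups did not overlap, and every nanoparticle library was higher (exact permutation p = 0.1, the smallest possible). No fold is given against libraries listed at 0. Such a shift was common among low genes: of the 11242 genes below the level tested, 40.3% were higher in every nanoparticle library than in any PBS library, and 3.08% were lower in the same sense. The number of genes above 0 moved the same way, with 13544 to 13808 such genes per PBS library and 18319 to 18509 per nanoparticle library. In a fit with no filter on low values, Tlr8 had a log2 fold change of 0.15 (adjusted p = 0.00219, limma) and Irak3 one of 0.28 (adjusted p = 0.045, limma). In that fit 44.2% of the genes otherwise below the level tested were called higher. The part of this general shift in the Tlr8 values was not tested.

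Tlr9, on chromosome 9, 106222598 to 106226883, was listed at 0 in all 6 libraries. In the summed FPKM of Tlr7, Tlr8 and Tlr9, the PBS libraries spanned 0.123 to 0.198 and the nanoparticle libraries 0.251 to 0.349, without overlap, and the difference came mainly from Tlr8. Against that sum, Myd88 stood 177 ± 38.4 times higher with PBS and 181 ± 26.4 times higher with nanoparticles (SD, n = 3), with overlapping libraries.

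Unc93b1, on chromosome 19, 3935186 to 3949340, encodes the chaperone that all 3 receptors need to reach the endosome. It read 0.354, 0.666 and 0.723 FPKM with PBS and 0.467, 0.587 and 0.427 FPKM with nanoparticles. The groups overlapped (means 0.581 ± 0.199 and 0.494 ± 0.083 FPKM, SD, n = 3; exact permutation p = 0.5), and the gene stayed below the level tested.

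Myeloid cells, B cells and plasmacytoid dendritic cells are the usual sites of these receptors, so markers of those cells are given beside them. Of 16 myeloid markers, 6 were listed at 0 in all PBS libraries (among them Ptprc, Adgre1 and Fcgr1, named after their values were seen), and none was at 0 in all 3 nanoparticle libraries; over all 22105 genes, 7328 were at 0 in every PBS library and 2081 in every nanoparticle library. With 13 markers below the level tested, 8 of those were higher in every nanoparticle library and 1 was lower, where 40.3% and 3.08% of all low genes were. The 3 tested rose: Cd68, a lysosomal glycoprotein not restricted to macrophages (12.2 ± 1.82 to 35.3 ± 1.56 FPKM), Mpeg1 (0.0824 ± 0.0765 to 1.77 ± 0.104 FPKM) and Csf1r (0.0416 ± 0.0125 to 1.45 ± 0.36 FPKM). The filter fixed the direction of Mpeg1 and Csf1r, which were under 1 FPKM in all PBS libraries. The summed FPKM of the myeloid list without Cd68 lay between 0.616 and 0.879 with PBS and between 5.96 and 6.99 with nanoparticles. Of 10 B cell and plasmacytoid dendritic cell markers, 9 were below the level tested, 8 of them higher in every nanoparticle library (40.3% of all low genes were), and 4 were at 0 in all PBS libraries. The other, Tcf4, is widely expressed and fell from 36.6 ± 1.76 to 8.98 ± 0.172 FPKM. Their part in the Tlr8 and Irak3 values was not tested. In bulk RNA, a change in the number of cells of a type and a change in RNA per cell cannot be told apart. Of 10 mammary epithelial markers, 7 were tested, of which 5 rose, 1 fell and 1 did not pass. Among all tested genes, 40.5% rose and 46% fell. With each library rescaled to a fixed sum (TPM), 4 of these markers rose and 2 fell. With the trend of change with gene length (genomic span and exonic length) taken out, 3 rose and 3 fell. The marker that fell, Cldn3 (named after its values were seen), had a log2 fold change of -0.51, and -0.96 with that trend taken out. The keratins of simple epithelia Krt8, Krt18 and Krt7 rose from 215 ± 2.58 to 343 ± 0.924, from 514 ± 6.33 to 685 ± 22.7 and from 53.8 ± 1.19 to 71.6 ± 1.38 FPKM, and Krt18 passed as lower, at -0.07 on the log2 scale, with that trend taken out. Epcam (named after its values were seen) averaged 0.551 and 0.639 FPKM in the PBS and nanoparticle groups.

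**Figure D2:**
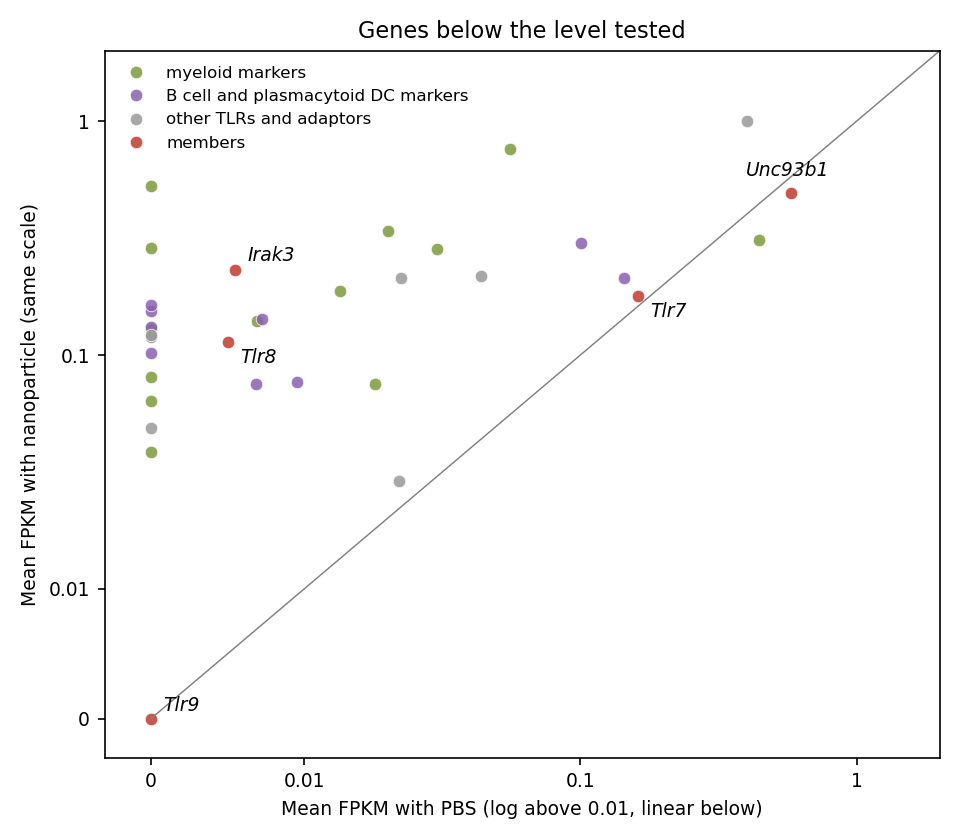
Mean FPKM with PBS (x axis) against mean FPKM with nanoparticles (y axis), both logarithmic above 0.01 and linear below, for genes below the level tested: the members (red), myeloid markers (green), B cell and plasmacytoid dendritic cell markers (purple) and other Toll-like receptors and adaptors (grey). The grey line marks equal means; Tlr7, Tlr9 and Unc93b1 lie on or near it, while Tlr8 and Irak3 lie above it together with most markers.

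Myd88 encodes the adaptor that all Toll-like receptors except TLR3 can use. It lies on chromosome 9, 119335934 to 119341411 (minus strand), and read 27.8, 27.2 and 30.4 FPKM with PBS and 50.8, 53.7 and 51.8 FPKM with nanoparticles. Every nanoparticle library was higher than every PBS library. The means were 28.5 ± 1.74 and 52.1 ± 1.47 FPKM (SD, n = 3), a log2 fold change of 0.85 with a standard error of 0.045 (limma, adjusted p = 6.14e-08). Of all tested genes, 86.5% had a lower log2 fold change. With the length trend taken out, the log2 fold change of Myd88 was 0.44 (adjusted p = 6.53e-06, limma). Of its exonic bases, 11.3% are shared with Acaa1a on the opposite strand, a peroxisomal thiolase gene (named after its values were seen) that fell from 34.1 ± 0.628 to 11.7 ± 0.629 FPKM. No source used here says whether reads were counted by strand, so reads from such an overlap cannot be assigned.

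Stretches before a RefSeq start are shown for Myd88 and Irak4. These 2 members were chosen because they moved farthest on the log2(FPKM + 1) scale, in opposite directions. With the length trend taken out, Irak1 (-0.73) moved farther than Myd88 (0.44). The stretches come from RefSeq promoter windows on GRCm38.p6, limited to bases outside annotated exons. Capitals mark a match to GAAA, 2 bases of any kind, then GAAA, the core of the sites that interferon regulatory factors bind. The Myd88 stretch is chr9:119340042-119340268, minus strand, positions -250 to -24 from the RefSeq start. It lies inside the annotated Myd88 span given above, so it is upstream of the RefSeq start used, not of the whole gene. The Irak4 stretch is chr15:94543548-94543642, plus strand, positions -112 to -18.
Myd88: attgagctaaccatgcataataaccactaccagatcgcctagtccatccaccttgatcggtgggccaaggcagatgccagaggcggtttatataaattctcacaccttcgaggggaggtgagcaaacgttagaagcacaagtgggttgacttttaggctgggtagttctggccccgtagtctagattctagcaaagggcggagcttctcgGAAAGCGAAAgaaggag
Irak4: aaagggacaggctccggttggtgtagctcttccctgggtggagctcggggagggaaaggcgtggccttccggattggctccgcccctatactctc

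The match in Myd88 spans positions -40 to -31 (chromosome 9, 119340049 to 119340058). RefSeq windows were found for 8 of the 10 genes, all but Tlr7 and Unc93b1, and Myd88 was the 1 gene among them with a match on either strand. Of all 32851 windows of the same length in the table (250 bases before to 50 after a start), 3.44% held one. Counted by gene, as for the members, 3.99% of 27025 genes had a match. A second motif, TTCNNNGAA, has the palindromic spacing that STAT factors bind. It occurred in the windows of Myd88 and Tlr8, in 8.3% of all windows and in 9.55% of genes. The Myd88 match (positions -46 to -38) overlaps the one in capitals. The NF-kB consensus occurred in Irak1, in 8.46% of all windows and in 9.55% of genes. A match describes letters only; binding was not measured.

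The 3 tested kinases were called lower, as were 46% of all tested genes. With the length trend taken out, the log2 fold changes of Irak4, Irak1 and Irak2 were -0.84, -0.73 and -0.11. Irak4, the kinase that MyD88 recruits first, lies on chromosome 15, 94543643 to 94581815. It read 6.55, 6.83 and 7.08 FPKM with PBS and 3.19, 3.08 and 3.41 FPKM with nanoparticles. No library of one group reached the range of the other. Its mean dropped by 52.7%, from 6.82 ± 0.266 to 3.23 ± 0.165 FPKM (SD, n = 3), with a log2 fold change of -0.89 ± 0.058 (standard error; limma, adjusted p = 2.89e-07). Of all tested genes, 16.7% had a lower log2 fold change. It shares 7.87% of its exonic bases with Twf1 on the opposite strand, an actin-binding gene (named after its values were seen) that rose from 17.9 ± 0.328 to 29.7 ± 1.19 FPKM.

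Irak1, the main substrate of IRAK4, was the most abundant kinase. It lies on chromosome X, 74013914 to 74023918, and read 29.8, 31.7 and 30.3 FPKM with PBS and 24.1, 22.6 and 23.4 FPKM with nanoparticles. The groups did not overlap, and the mean dropped by 23.6% (log2 fold change -0.37 ± 0.039, standard error; limma, adjusted p = 1.04e-05). Taking out the trend with gene length moved it to -0.73 (adjusted p = 1.14e-07, limma).

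Irak2, which sustains the later response of the pathway, lies on chromosome 6, 113638467 to 113695026. It read 12.2, 12 and 12.8 FPKM with PBS and 8.73, 9.08 and 9.08 FPKM with nanoparticles, again without overlap. The mean dropped by 27.3% (log2 fold change -0.42 ± 0.045, standard error; limma, adjusted p = 1.24e-05). This gene spans 56.6 kb, and with the length trend taken out its log2 fold change was -0.11 (adjusted p = 0.0412, limma), close to the threshold.

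Irak3, the brake of the family, lies on chromosome 10, 120141648 to 120202130, and was below the level tested. It was listed at 0.0166, 0 and 0 FPKM with PBS and at 0.116, 0.465 and 0.114 FPKM with nanoparticles. All nanoparticle libraries were higher (exact permutation p = 0.1, the smallest possible), among 40.3% of low genes for which this held. Library 2 stood well above the other two nanoparticle libraries: the group difference of 0.226 FPKM was 0.109 FPKM without it. Irak3 shares 5.22% of its exonic bases with Tmbim4 (named after its values were seen), a gene of 39.2 ± 1.95 and 52.0 ± 3.91 FPKM on the opposite strand.

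The summed FPKM of the 4 kinases was 48.5, 50.6 and 50.2 with PBS and 36.2, 35.2 and 36.0 with nanoparticles. Irak4 made up 13.7 ± 0.354% of that sum with PBS and 9.01 ± 0.388% with nanoparticles, without overlap. The share of Irak1 was 61.5 ± 1.21% and 65.3 ± 1.29%, also without overlap, and the share of Irak2 overlapped, at 23.7 to 25.5% and 24.2 to 25.8%. The groups did not overlap for Irak1, Irak2 or Irak4 alone either, as held for 87.2% of all tested genes. These shares were not computed with the length trend taken out, a step that changes how these kinases moved relative to each other.

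Traf6, the ubiquitin ligase that joins the kinases to TAK1, lies on chromosome 2, 101678429 to 101701669. It read 6.26, 6.33 and 6.54 FPKM with PBS and 5.6, 5.78 and 5.62 FPKM with nanoparticles. The groups did not overlap, and the difference was small: the mean dropped by 11.1%, from 6.37 ± 0.149 to 5.66 ± 0.099 FPKM (SD, n = 3), with a log2 fold change of -0.15 ± 0.049 (standard error; limma, adjusted p = 0.0186). Without PBS library 3 the call was lost (log2 fold change -0.13, adjusted p = 0.0643, limma), and with the length trend taken out it was -0.29 (adjusted p = 0.000327, limma), close to the -0.30 on the TPM scale.

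**Figure D3:**
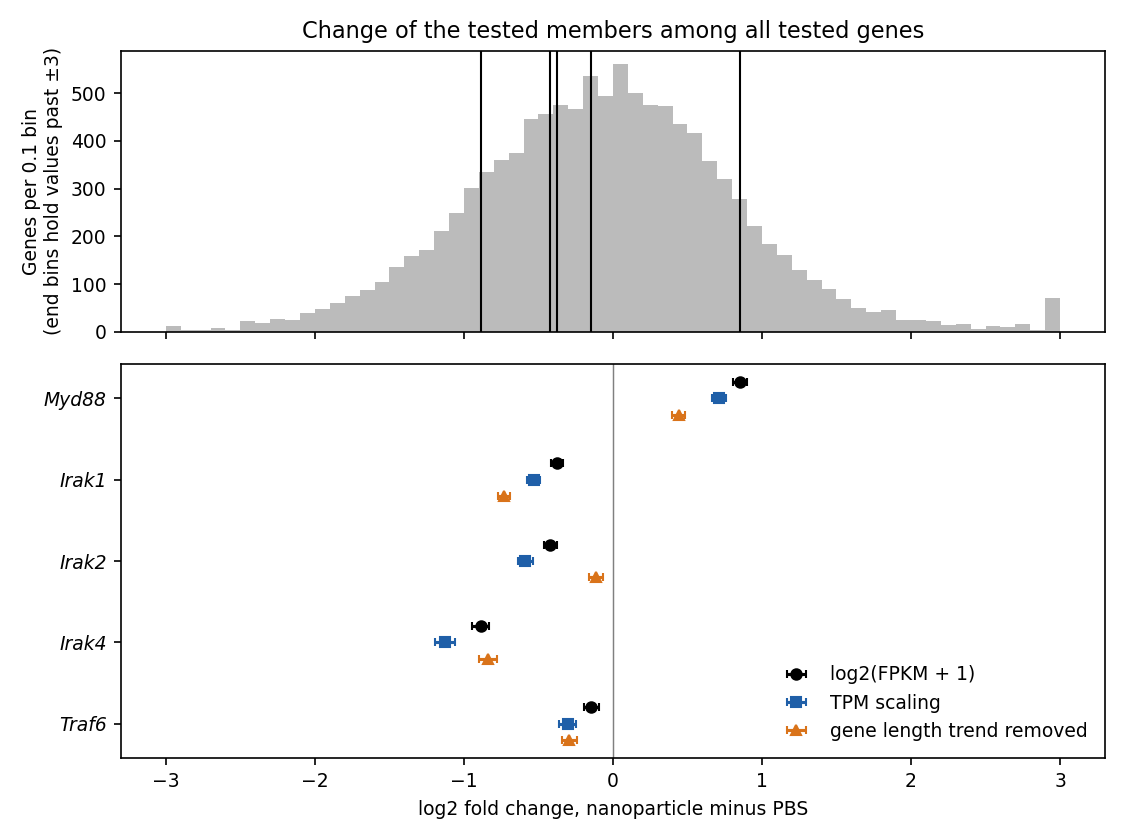
Upper panel: number of tested genes (y axis) by log2 fold change, nanoparticle minus PBS (x axis), with the 5 tested members as black lines from Irak4 at -0.89 to Myd88 at 0.85. Lower panel: the same members with standard errors on the log2(FPKM + 1) scale (black), after rescaling to TPM (blue) and with the gene length trend removed (orange); no member changes sign.

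Rescaling each library to a fixed sum (TPM, a transcript unit in which every library has the same total) moved the median log2 fold change of all tested genes from -0.06 to -0.21. The members moved with it, Myd88 to 0.71 and Irak4 to -1.13, and kept their directions and calls.

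Ratios within a library do not depend on how libraries are scaled to each other. The ratio of Myd88 to Irak4 was 4.24, 3.98 and 4.3 in the PBS libraries and 15.9, 17.4 and 15.2 in the nanoparticle libraries, a difference of 1.95 on the log2 scale. The ratio of Traf6 to Irak4 went from 0.935 ± 0.017 to 1.76 ± 0.113. In FPKM, Irak4 was above Traf6 in all PBS libraries and below it in all nanoparticle libraries. The PBS gap was narrow: the lowest Irak4 library read 6.554 FPKM and the highest Traf6 library 6.542 FPKM. Irak1 to Irak4 went from 4.49 ± 0.192 to 7.25 ± 0.347, and Irak2 to Irak4 from 1.81 ± 0.05 to 2.78 ± 0.145 (SD, n = 3). The ratio of Unc93b1 to Myd88 was 0.0203 ± 0.0066 and 0.0095 ± 0.0014. They do depend on the trend with gene length. As differences of the fitted log2 fold changes, Irak1 minus Irak4 was 0.51, and 0.11 with that trend taken out, while Irak2 minus Irak4 went from 0.47 to 0.73. Myd88 minus Irak4 went from 1.74 to 1.28 and Traf6 minus Irak4 from 0.74 to 0.55. None of the 5 ratios overlapped between groups. Each had an exact permutation p of 0.1, also after Benjamini-Hochberg adjustment over the 5, which is the smallest that 3 against 3 allows. All but Unc93b1 to Myd88 share the denominator Irak4. The groups did not overlap for Irak4 or Myd88 alone, as held for 87.2% of all tested genes, so the separation partly restates their changes. The share over other gene pairs was not computed.

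**Figure D4:**
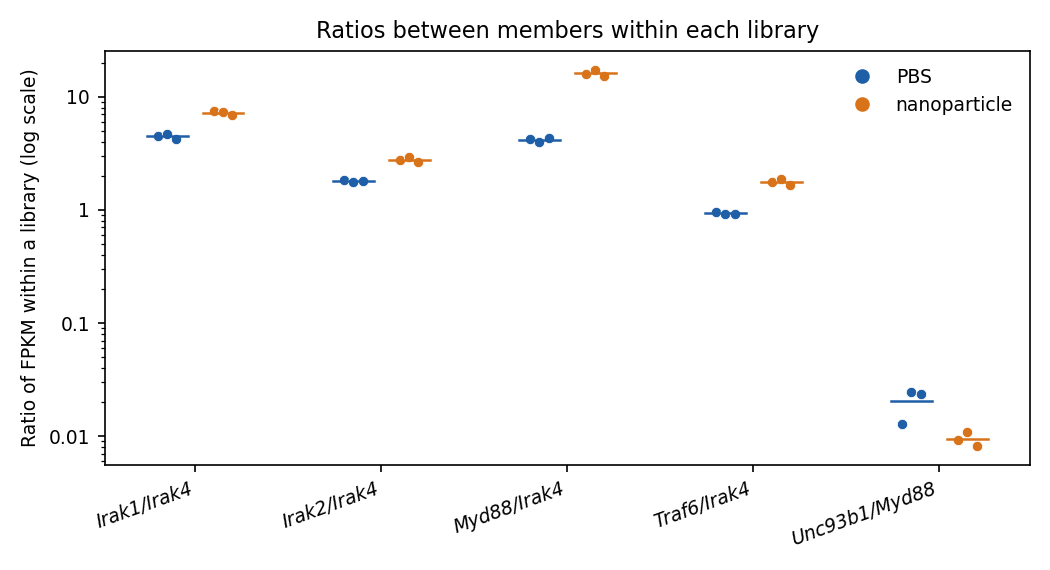
Ratio of 2 members' FPKM within each library (y axis, logarithmic) in the PBS (blue) and nanoparticle (orange) libraries; points are libraries and bars group means. The 4 ratios to Irak4 are higher in every nanoparticle library, and Unc93b1 to Myd88 is lower.

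In the order of levels with PBS, Irak1 came first and Myd88 next, and their libraries overlapped. Irak2, Irak4, Traf6, Unc93b1 and Tlr7 followed, each apart from its neighbour (Irak4 and Traf6 only narrowly), and Irak3, Tlr8 and Tlr9 could not be ordered. With nanoparticles the order was Myd88, Irak1, Irak2, Traf6 and Irak4, all apart from their neighbours. Below them, Unc93b1 overlapped Irak3 and Irak3 overlapped Tlr7, while Tlr8 lay below Tlr7 without overlap. The closest libraries of that pair read 0.163 FPKM (Tlr7) and 0.151 FPKM (Tlr8). At such low levels and with unknown depth, this order is not firm.

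Around these genes, 86 genes in 7 lists cover the rest of the pathway. Of these, 64 were tested, of which 29 rose, 28 fell and 7 did not pass, where 40.5% of all tested genes rose and 46% fell. The lists were written with earlier results of these data known, and the counts of each list stand beside these same shares. In the list for endosomal traffic and receptor processing, 5 of 12 tested genes rose and 5 fell (median log2 fold change -0.03); on the TPM scale, and also with the length trend taken out, 3 rose and 9 fell. Lgmn, the endosomal protease legumain, rose from 79.2 ± 1.38 to 119 ± 4.05 FPKM, and Lrrc59, which binds UNC93B1, rose from 49.7 ± 1.57 to 94.1 ± 0.514 FPKM. Ap3b1, a subunit of the AP-3 adaptor that sorts TLR7 and TLR9, fell from 32.7 ± 0.338 to 6.62 ± 0.21 FPKM; it spans 207 kb, and its log2 fold change of -2.14 was -1.09 with the length trend taken out. Ctsl, the cathepsin L gene and the most abundant of the list, passed as higher by 0.05 on the log2 scale, but as lower at -0.10 on the TPM scale and at -0.25 with the length trend taken out.

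Among other Toll-like receptors and their adaptors, 4 of 9 tested genes rose and 5 fell (median -0.61). Tlr2 and Tlr4, surface receptors for lipopeptides and lipopolysaccharide, fell from 23.0 ± 0.614 to 13.3 ± 0.141 FPKM and from 19.7 ± 0.297 to 8.99 ± 0.544 FPKM. Their log2 fold changes were -0.74 and -1.05, and -1.16 and -0.34 with the length trend taken out, so which of the pair fell more depends on that step. Tlr3, which signals without MyD88, had a log2 fold change of 1.91. Tirap, the bridging adaptor of TLR2 and TLR4, rose by 0.23 on the log2 scale, a call lost on the TPM scale (adjusted p = 0.0642, limma) and at -0.04 with the length trend taken out. Of the 7 below the level tested, 6 were higher in every nanoparticle library, beside 40.3% of all low genes. Of 3 tested IL-1 family receptor genes, Il1r1 fell from 14.0 ± 0.439 to 4.75 ± 0.04 FPKM and Il1rap, its accessory chain, from 10.3 ± 0.717 to 4.34 ± 0.579 FPKM. With the length trend taken out, the log2 fold change of Il1r1 went from -1.39 to -0.72. Il1rap spans 148 kb and did not pass with the length trend taken out (log2 fold change -0.12, adjusted p = 0.189, limma). Il18rap, the IL-18 accessory chain, rose from 0.449 ± 0.0995 to 2.43 ± 0.255 FPKM, a direction that the filter fixed.

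In the TAK1 and IKK branch downstream of TRAF6, 3 of 14 tested genes rose, 7 fell and 4 did not pass (median -0.06). Of all tested genes, 40.5% rose and 46% fell. With the length trend taken out, 6 of the branch rose and 3 fell. Nfkb1, the p105 precursor of NF-kB p50, fell from 58.3 ± 0.984 to 19.8 ± 0.748 FPKM, and Ecsit, a TRAF6-binding signalling protein, rose from 6.36 ± 0.559 to 14.9 ± 0.0989 FPKM. Rela, the NF-kB subunit p65, had a log2 fold change of 1.00, and Nfkbia, the NF-kB inhibitor IκBα, one of -0.11. With the length trend taken out, the log2 fold change of Nfkb1 went from -1.51 to -0.72, that of Rela to 0.65 and that of Nfkbia to -0.57 (-0.27 on the TPM scale). In the interferon regulatory factor branch, 4 of 5 rose and 1 fell (median 1.38); with the length trend taken out, all 5 passed as higher. The gene that fell, Traf3 (named after its values were seen), a ligase of the interferon arm, went from -0.44 to 0.28 on the log2 scale (adjusted p = 0.000371, limma). Irf7, which MyD88 binds directly in plasmacytoid dendritic cells, had a log2 fold change of 4.48, Irf8 one of 1.47 and Irf1 one of 0.78 (0.38 with the length trend taken out). Of 10 brakes of the pathway, 4 rose and 6 fell (median -0.44); with the length trend taken out, 4 rose and 4 fell. The filter fixed the direction of 2 of them, Socs1 and Inpp5d (the latter named after its values were seen); Inpp5d fell from 2.55 to 0.664 FPKM. Those that rose included Tnfaip3 (2.40), Socs1 (2.02) and Trim30a (1.91, with close paralogs that can share reads), all log2 fold changes, while Tnip1, a partner of the Tnfaip3 product, fell by 0.56 on that scale (-0.32 with the length trend taken out).

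Among cytokine and inflammatory targets, 8 of 11 tested genes rose, 2 fell and 1 did not pass (median 0.28). Of all tested genes, 40.5% rose and 46% fell. On the TPM scale 7 of the targets rose and 3 fell, and with the length trend taken out 6 rose and 5 fell. The filter fixed the direction of 2 of those that rose, Il6 and Tnf (the latter named after its values were seen). Il6 went from 0.238 ± 0.11 to 23.6 ± 2.63 FPKM and Tnf from 0.418 ± 0.103 to 2.70 ± 0.374 FPKM. Cxcl10 rose from 4.85 ± 0.757 to 64.5 ± 2.46 FPKM and Ptgs2 by 2.03 on the log2 scale. Cxcl1, the most abundant, rose from 1183 ± 23.2 to 1437 ± 6.31 FPKM (log2 fold change 0.28, and 0.13 on the TPM scale) and passed as lower, at -0.12 on the log2 scale, with the length trend taken out. Of the 5 targets below the level tested, 3 were higher in every nanoparticle library, beside 40.3% of all low genes.

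**Figure D5:**
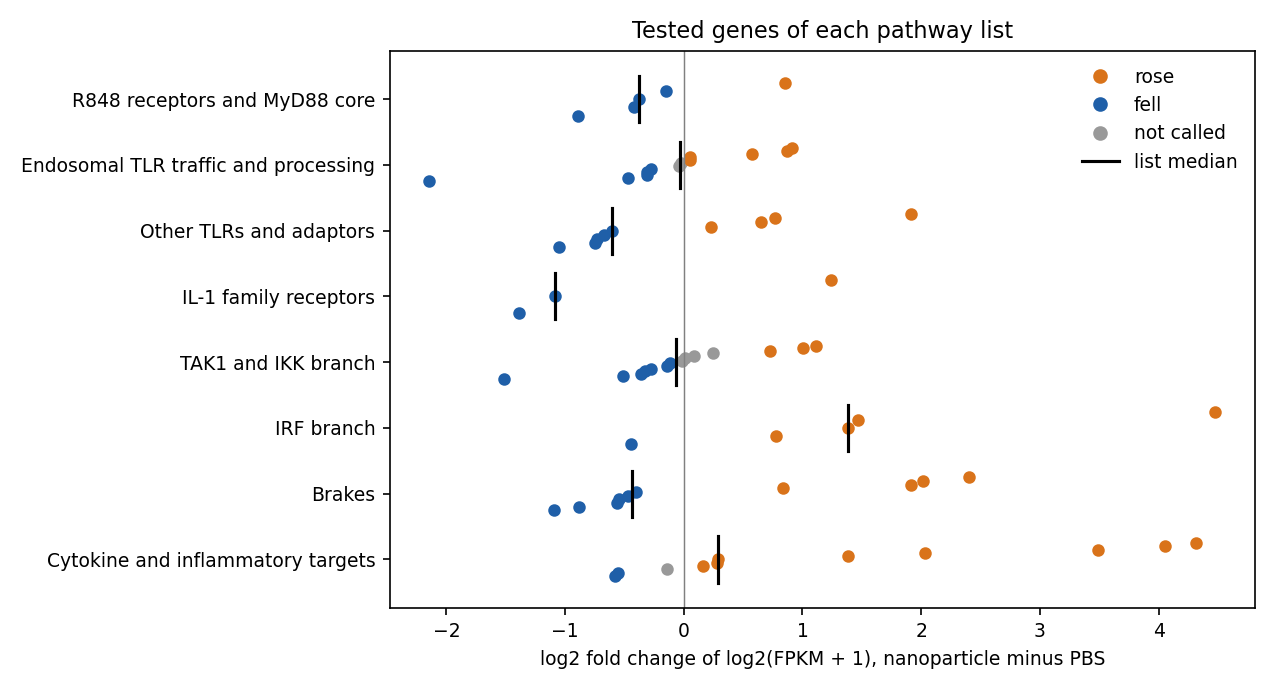
Log2 fold change (x axis, nanoparticle minus PBS) of each tested gene in 8 groups of the pathway (rows); orange points rose, blue fell, grey did not pass, and black bars are group medians. The median lies highest in the interferon regulatory factor branch, at 1.38, and lowest among IL-1 family receptors, at -1.08. The latter rests on 3 tested genes, and the filter fixed the direction of Il18rap. With the length trend taken out, Il1r1, Il1rap and Il18rap were at -0.72, -0.12 and 1.28, so the lowest place holds for the scale shown only.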

How the data were processed

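RNA from 6 libraries of 4T1 cells (3 PBS, 3 nanoparticle) was enriched for mRNA and sequenced, per the labels' protocols. STAR and featureCounts, with builds GRCm38 and mm10, are named in the submitters' processing notes. The deposited table holds FPKM values made by the authors; the unit was inferred from the values, and no source used here names the program that made them. Low values showed no steps of whole reads (no 1% bin of the ratio between replicate libraries held over 1.86% of low genes), so depth is unknown. The 701 features without a gene identifier (0.631% to 0.67% of summed FPKM) were left out.

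Values were transformed to log2(FPKM + 1) and fitted with limma 3.58.1 in R 4.3.3 (lmFit, eBayes with trend and robust settings, no replicate block), two-sided, over genes with at least 1 FPKM in 3 libraries. The script was tested on simulated data. Python 3.11.15 with scipy 1.17.1 gave the exact permutation tests. The length trend was a natural spline with 5 degrees of freedom each for genomic span and exonic length (GENCODE M21, GRCm38), taken out of each library. The alternatives were a pseudocount of 0.1, no filter, median-of-ratios and TPM scaling, a replicate block, the length trend removed and each library left out. Members and lists were chosen with earlier results of these data known. Named beyond the 10 genes were, in each list, the 3 with the smallest adjusted p and the most abundant; other genes are marked.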

Additional observations from a re-analysis of the deposited data

How the results depend on the processing

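The 5 tested members kept their direction under every alternative run, and their calls except Traf6 without PBS library 3. With no filter on low values, 8445 of 20124 genes were called higher, in place of 4395 of 10863. Members called higher went from 1 of 5 to 3 of 9 (Tlr8, adjusted p = 0.00219, and Irak3, adjusted p = 0.045, both limma). Pathway list genes called higher went from 29 of 64 to 44 of 86. With the length trend removed (for differences between members, chosen after seeing the data), the log2 fold change of Irak4 lay below those of Irak1, Irak2, Myd88 and Traf6 by 0.11, 0.73, 1.28 and 0.55. The fit with no filter tests 20124 genes, most of the added ones under 1 FPKM. The mean difference of Tlr7 was 0.0177 FPKM, and it ranged from -0.0016 FPKM (without PBS library 2, a reversed sign) to 0.036 FPKM (without PBS library 3) when libraries were left out; leaving out libraries for genes below the level tested was chosen after seeing the data. Leaving out 1 library gave 3 to 4 members lower. Same-numbered libraries did not deviate together (correlations of -0.014, -0.043 and 0.041), so the numbers are not taken to pair them; with a replicate block, 4389 genes were higher and 4982 lower, the members stayed at 1 higher and 4 lower, and Traf6 had an adjusted p of 0.0363 (limma). Depth is unknown, so low genes carry no counting interval.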
